A study of Mus musculus with 8 samples.

Results

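Grb10 and 9 further genes of the imprinted gene network were followed in sorted mouse bone marrow progenitors, from L-GMPs of leukaemic mice and GMPs of normal mice. The members were Grb10, Igf2, Igf2r, H19, Peg3, Dlk1, Meg3, Ndn, Cdkn1c and Plagl1. They were taken by gene name, and the list was chosen from earlier results of these arrays, in which Grb10 already had a large difference between L-GMPs and GMPs. The values that chose it are therefore given as a description. Where member probe sets are counted or named as past a threshold, in any setting, this is no test of them. The rule kept every probe set whose single annotated gene symbol is a member, which gave 37 of 45037 probe sets, for 9 of the 10 genes. H19 is listed on a probe set with several symbols only, so no value is given for it. By the same rule 1 probe set that lists Igf2r among several symbols was left out.

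Imprinted genes are expressed mainly from the allele of 1 parent. Many of them control fetal growth, and after birth most of the growth-promoting ones are turned down in most tissues. GRB10 is an adaptor protein that binds the activated insulin and IGF1 receptors and dampens their signal. Mouse Grb10 is expressed from the maternal allele in most tissues and from the paternal allele in neurons. PLAGL1, a zinc finger transcription factor, is known to regulate other members of the network. Several members, among them Cdkn1c and Ndn, are known for restraining the cycling of blood stem cells.

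L-GMP arrays (4, replicates A to D) hold cells with the genotype label HoxA9+Meis1 AML, and GMP arrays (4, replicates A to D) hold cells labelled Normal. Both were sorted from bone marrow by flow cytometry as granulocyte-macrophage progenitors. Strain, age, the way the leukaemia was made, and whether animals were pooled are not stated in the labels, nor whether arrays of a group came from separate mice. Expression was read on an Affymetrix mouse array, and all levels below are log2 of the deposited intensity, in which a difference of 1 is a doubling. The arrays do not separate the alleles of a gene, so they carry no information on imprinting itself.

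Markers of the GMP gate were present in both groups, with a lower sum in L-GMPs. Of the 13 probe sets of this list, 6 were past the threshold (adjusted p of 0.05), all of them lower in L-GMPs. This share of 46.2% stands beside 10.9% over all probe sets. Summed linear intensity of the list's 11 genes was 28321 to 32827 in L-GMPs and 41134 to 45125 in GMPs. Mpo (myeloperoxidase), the brightest of the GMP markers, was at 13.2 ± 0.09 in L-GMPs and 13.6 ± 0.04 in GMPs (SD, n = 4 each), and Ctsg (cathepsin G) at 13.1 ± 0.07 and 13.2 ± 0.05. Cd34 and Fcgr3, antigens of the gate, had changes of -0.20 (adjusted p = 0.677) and 0.01 (adjusted p = 0.973). Kit, also an antigen used to gate GMPs, fell in both of its probe sets, with changes of -0.96 and -1.09, and under both other scalings. Ms4a3, Irf8 and Cebpa had changes of -0.78, 0.52 and 0.14, none past the threshold. Elane, Csf3r, Kit, Prtn3 and Mpo fell, with changes of -1.75, -1.16, -0.96, -0.84 and -0.39. After median centring the Mpo call was lost and 1 of 2 Irf8 probe sets passed as higher. The genes of the leukaemia's label did not move together. Hoxa9 rose by 4.82 in 1 probe set and fell by 6.66 in the other, and Meis1 fell in all 3 of its probe sets, with changes of -3.05, -2.07 and -1.47. The 3' minus 5' signal of the Gapdh control was 1.24 to 1.55 in L-GMPs and 1.46 to 1.76 in GMPs other than replicate D, which stood at 2.74. L-GMP replicate B stood apart from the other L-GMP arrays in several genes below, and results are given without these 2 arrays where that matters.

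The finding turns on Grb10, so the sequences before its annotated starts are shown first. RefSeq lists 2 starts for the gene on the minus strand of chromosome 11 (GRCm38.p6). The windows below are the 250 bases before each start, with every CpG dinucleotide in capitals. The upstream window is chr11:12037421-12037670 and the internal one is chr11:12027972-12028221.
Grb10 upstream start: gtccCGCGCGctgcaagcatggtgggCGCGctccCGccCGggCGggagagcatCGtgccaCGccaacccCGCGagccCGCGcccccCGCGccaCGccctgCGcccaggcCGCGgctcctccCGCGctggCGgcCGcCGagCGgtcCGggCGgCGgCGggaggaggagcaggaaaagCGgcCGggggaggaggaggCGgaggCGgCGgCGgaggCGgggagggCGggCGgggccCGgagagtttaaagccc
Grb10 internal start: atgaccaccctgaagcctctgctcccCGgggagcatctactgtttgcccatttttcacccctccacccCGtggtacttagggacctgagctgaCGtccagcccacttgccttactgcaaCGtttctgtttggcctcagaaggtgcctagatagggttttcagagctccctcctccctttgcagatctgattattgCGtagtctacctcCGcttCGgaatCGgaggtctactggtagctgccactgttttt
The upstream window holds 40 CpGs, more than 98.7% of 32851 windows of the same length, whose median is 6. The internal window holds 8, more than 57% of them. Methylation was not measured here, so the CpG counts tie neither window to the imprint of Grb10. The MEIS core motif TGACAG, read on both strands, is in neither Grb10 window and in 15.9% of all windows. The HOX-PBX motif TGATTTAT is likewise in neither and in 0.837% of all windows. Of the 13 windows listed for the members, 1 window of Igf2 holds TGACAG and none holds TGATTTAT. These are matches of letters in short windows and not binding sites.

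Grb10 was lower in L-GMPs in all 3 of its probe sets, and far lower in the brightest. In the brightest probe set (1425458_a_at), L-GMP replicates A to D stood at 3.39, 3.50, 3.30 and 3.52, against 8.60, 9.02, 8.22 and 8.69 in GMP replicates A to D. The groups lay far apart. The L-GMP arrays were close together (SD 0.10), while the range over GMP arrays, 0.80 (SD 0.33), was wider than in 91.4% of all probe sets. The difference was -5.20 (SE 0.16), a 36.8-fold lower signal in L-GMPs. Of all 45037 probe sets, 15 had a fall at least as large, this one included. The L-GMP mean was 3.43, while the lower quartile of all probe sets was 3.65 to 3.75 depending on the array. A signal that near the floor gives the depth of the fall only roughly. In bulk samples, fewer cells that express a gene and less RNA per cell cannot be told apart.

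The other Grb10 probe sets gave the same direction with smaller differences. The second (1425457_a_at) stood at 4.70, 5.08, 4.52 and 4.67 in L-GMP replicates A to D and at 7.10, 6.95, 6.51 and 6.61 in GMP replicates A to D. The third (1430164_a_at) stood at 4.30, 4.50, 4.52 and 4.27 in L-GMPs, against 4.83, 5.77, 5.41 and 5.10 in GMPs. The groups did not overlap in either, though in the third GMP replicate A came close to the L-GMP arrays. The differences were -2.05 (SE 0.16, 4.14-fold lower) and -0.88 (SE 0.18, 1.84-fold lower). All 3 carry the suffix that Affymetrix gives to probe sets reading several transcripts of 1 gene. Which transcripts each one reads is not known from the files, so their unequal differences cannot be assigned to a transcript or to either start.

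**Figure D1:**
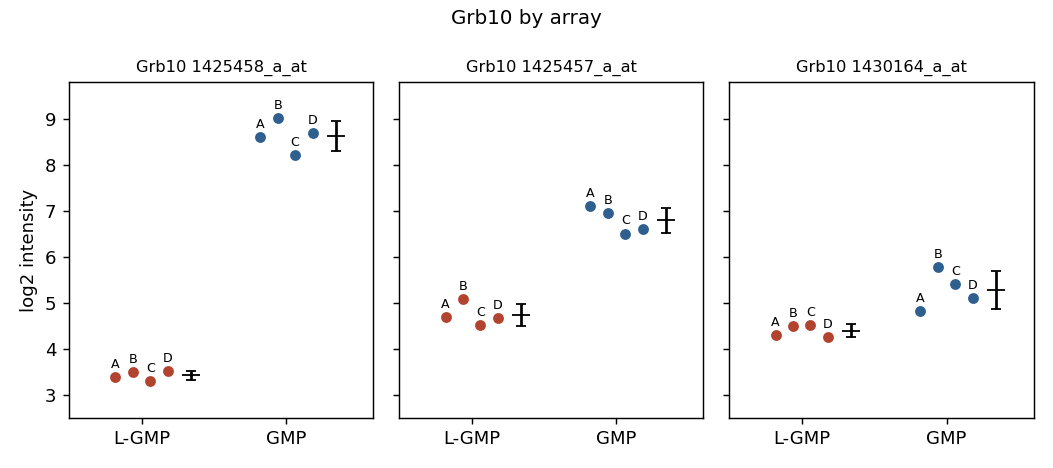
Log2 intensity of the 3 Grb10 probe sets on each array, L-GMP left and GMP right, with letters for replicates and bars for the mean ± SD of 4 arrays. The groups are separate in each panel, with differences of -5.20, -2.05 and -0.88.

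Most probe sets of the other members differed little between the groups, though many were too dim to show a fall. Of the 37 member probe sets, 4 were past the threshold of the fit over all probe sets (adjusted p of 0.05), namely the 3 of Grb10 and 1 of Peg3, all 4 lower in L-GMPs and 0 higher. Over all probe sets 10.9% were past it, 7.03% lower and 3.89% higher. Groups did not overlap in 7 member probe sets, 5 lower and 2 higher, where the background was 17.1% of all probe sets, 9.76% lower and 7.38% higher. Since the members were chosen on this contrast, nothing is read from these counts. The median difference of the 37 was 0.04, against 0.00 over all probe sets. Without Grb10, 33 of 34 probe sets differed by less than 0.5, as did 86.7% of all probe sets. The exception was a Plagl1 probe set. Many members were dim: 14 of 37 probe sets lay below the lower quartile on all 8 arrays, against 18.6% of all probe sets, and 26 of 37 below the median of each array, against 43.1%. With the dimmest 50% of all probe sets left out, 4 member probe sets remained, of Grb10, Meg3 and Plagl1. A probe set near the floor in GMPs has little room to fall.

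**Figure D2:**
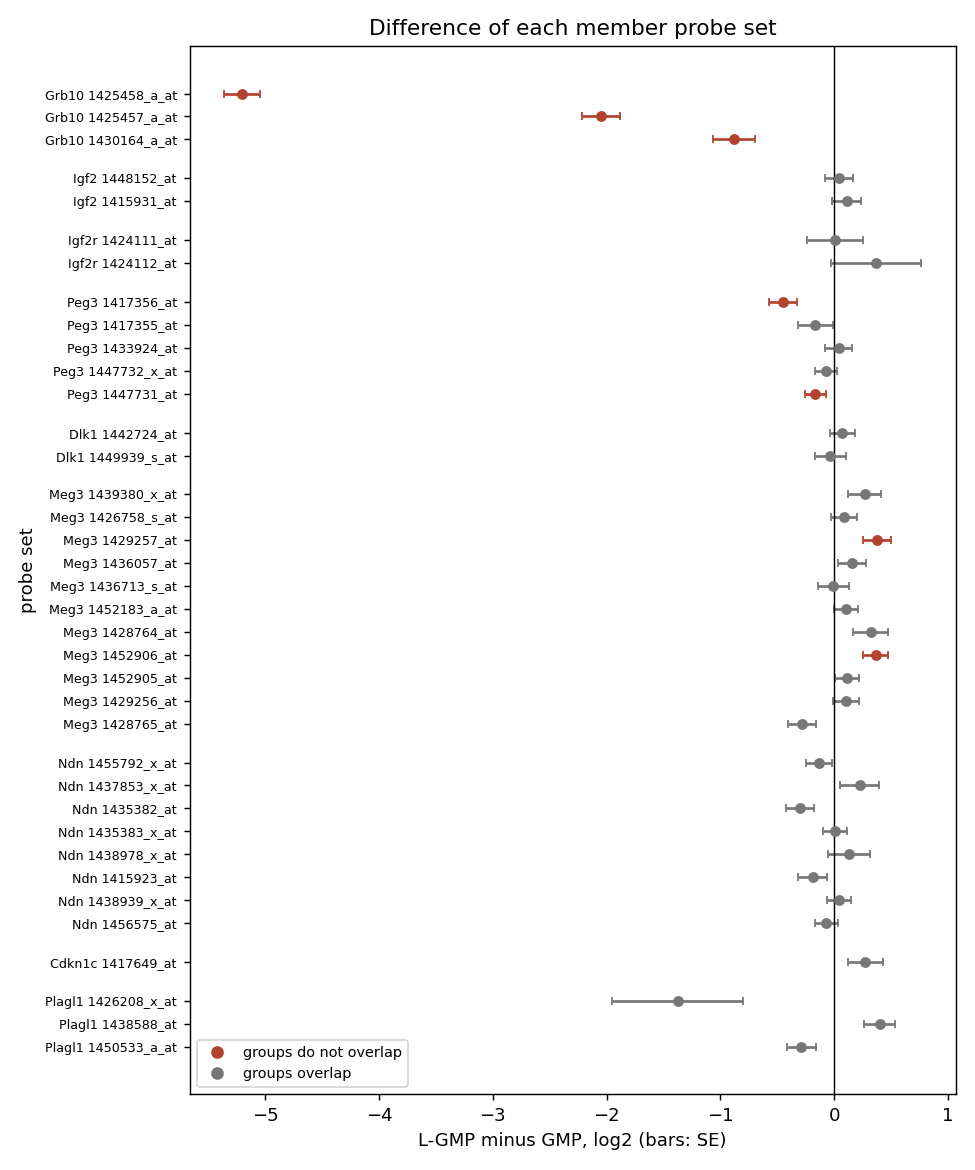
Difference of each of the 37 member probe sets, as log2 in L-GMPs minus log2 in GMPs, bars giving the SE of the fit, red where the groups do not overlap and grey where they do. The 3 Grb10 probe sets and 1 Plagl1 probe set stand apart, and the others lie within 0.5 of 0.

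The network's growth factor and its clearance receptor had small mean differences. Igf2 encodes a fetal growth factor expressed from the paternal allele. Its brighter probe set stood at 4.28, 4.04, 3.87 and 4.25 in L-GMP replicates A to D, against 3.94, 4.06, 4.0 and 4.27 in GMPs, a difference of 0.04 (SE 0.13). The dimmer one was under the lower quartile on all arrays and differed by 0.11. The groups overlapped in both, so no difference in Igf2 was detectable on these arrays.

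Igf2r, the maternally expressed receptor that carries IGF2 to the lysosome, differed between L-GMP arrays more than between groups. One probe set (1424112_at) stood at 4.83, 6.34, 4.33 and 4.20 in L-GMP replicates A to D, against 4.49, 4.77, 4.24 and 4.73 in GMPs. The other (1424111_at) stood at 4.70, 5.65, 4.46 and 4.30 in L-GMPs and at 4.72, 4.85, 4.76 and 4.77 in GMPs. L-GMP replicate B was the highest of all 8 arrays in both probe sets. The group differences were 0.37 (SE 0.39) and 0.00 (SE 0.25), and without L-GMP replicate B they were -0.10 and -0.29. The range over L-GMPs, 2.14 in the first and 1.35 in the second, was wider than in 99.3% and 97.4% of all probe sets.

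Plagl1, the paternally expressed zinc finger factor, gave different pictures by probe set. The brightest (1426208_x_at) stood at 5.91, 6.83, 3.82 and 4.42 in L-GMP replicates A to D and at 6.97, 6.11, 7.26 and 6.13 in GMPs. L-GMP replicates C and D were the lowest arrays, replicate A lay below every GMP array, and replicate B lay within the GMP range. The difference was -1.38 (SE 0.57). Its range over L-GMPs, 3.01, was wider than in 99.7% of all probe sets. It was not past the threshold with all arrays. It passed without L-GMP replicate B (difference -1.91) and without L-GMP B and GMP D together (-2.07). Leaving out the L-GMP array that lay within the GMP range widens the difference, so these passes are no test of a fall. The suffix marks probes that may also bind other transcripts. The second probe set (1438588_at) stood at 4.91, 4.98, 4.70 and 4.66 in L-GMPs and at 4.72, 4.23, 4.43 and 4.25 in GMPs, a difference of 0.40 (SE 0.14). It was not past the threshold as deposited and passed it under median centring, quantile normalization and array weights, and without GMP replicate A. The third differed by -0.29 (SE 0.13), so the gene had no single direction.

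**Figure D3:**
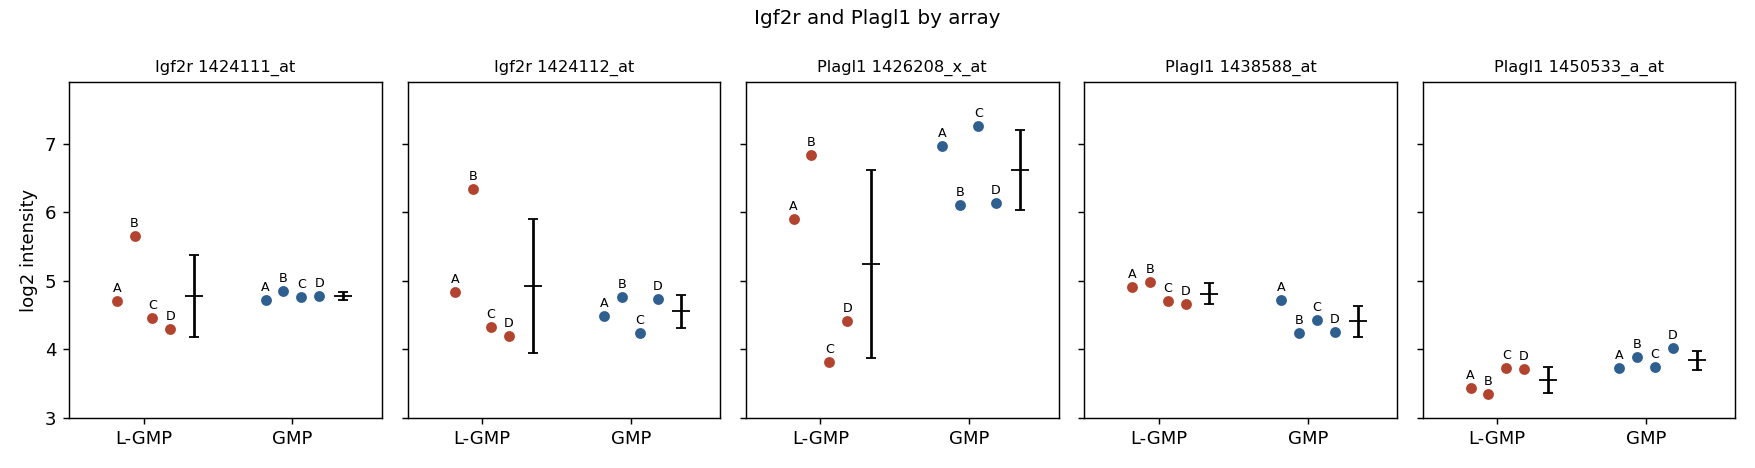
Log2 intensity of the 2 Igf2r and 3 Plagl1 probe sets on each array, L-GMP left and GMP right, with letters for replicates and bars for the mean ± SD of 4 arrays. L-GMP replicate B is highest in both Igf2r panels, and L-GMP replicates run between 3.82 and 6.83 in the first Plagl1 panel.

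Cdkn1c, which encodes the maternally expressed cell cycle inhibitor p57, was dim in both groups. Its single probe set stood at 4.52, 4.41, 4.37 and 3.94 in L-GMP replicates A to D, against 3.94, 3.87, 4.01 and 4.32 in GMPs. L-GMP replicate D lay at the level of the lower GMP arrays and GMP replicate D near the higher L-GMP arrays, so the groups overlapped. The difference was 0.28 (SE 0.15). The 2 relatives of p57 on the list of CDK inhibitors and PLAG factors, Cdkn1a and Cdkn1b, had 0 of 4 probe sets past the threshold. Of the 10 probe sets of that list none passed, and its largest change was -0.73 for Plag1 (SE 0.27, adjusted p = 0.115).

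The neighbouring genes Dlk1 and Meg3, a paternally expressed membrane ligand and a maternally expressed long noncoding RNA, showed small differences. The brighter Dlk1 probe set stood at 5.35, 5.14, 5.22 and 5.33 in L-GMP replicates A to D, against 5.21, 5.30, 4.97 and 5.29 in GMPs. The groups overlapped, and the difference was 0.07 (SE 0.11). The dimmer Dlk1 probe set differed by -0.03.

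Meg3 has 11 probe sets, with differences of -0.29 to 0.37 and a median of 0.11. The groups did not overlap in 2 of them. The first (1429257_at) stood at 5.43, 5.63, 5.33 and 5.14 in L-GMP replicates A to D, against 5.01, 5.13, 4.87 and 5.03 in GMPs. The second (1452906_at) stood at 4.19, 4.33, 4.12 and 4.08 in L-GMPs, against 3.84, 3.67, 3.73 and 4.0 in GMPs. L-GMP arrays were the higher in both, by narrow margins between the nearest arrays, and each difference was 0.37. Neither passed the threshold as deposited, and both passed it under median centring and quantile normalization, with differences of 0.51 and 0.50 in the first and 0.51 and 0.41 in the second. Median centring moved the median difference of all probe sets by 0.14, so small differences hold only relative to that shift.

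Peg3 and Ndn, paternally expressed genes for a zinc finger protein and for the growth suppressor necdin, lay near the floor. The brightest Peg3 probe set (1417356_at) stood at 3.33, 3.08, 3.31 and 3.10 in L-GMP replicates A to D, against 3.80, 3.62, 3.40 and 3.80 in GMPs. All L-GMP arrays were lower, with a difference of -0.45 (SE 0.12), and the other 4 Peg3 probe sets were under the lower quartile on all arrays. This probe set was not past the threshold under either other scaling, in the replicate block, without any single array other than GMP replicate C, or without L-GMP B and GMP D together. Another Peg3 probe set with separate groups (1447731_at) lay between 2.0 and 2.21 in L-GMPs and between 2.28 and 2.30 in GMPs. The 8 Ndn probe sets differed by -0.30 to 0.22, with a median of -0.03, and 6 of them lay below the lower quartile on all arrays. The groups overlapped in all 8, and no Ndn value on any array was above 4.65.

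The rest of the network, fixed as a list of 7 genes with 14 probe sets, had 0 rises and 1 fall, for a share of 7.14% against the background of 10.9%. The fall was in Gatm, which encodes an enzyme of creatine synthesis, by 0.84 (SE 0.22, adjusted p = 0.0372). Gatm stood at 8.95, 8.37, 7.97 and 8.83 in L-GMP replicates A to D, against 8.92, 9.54, 9.45 and 9.59 in GMPs. L-GMP replicate A lay above GMP replicate A, so the groups overlapped. Its call was lost in the replicate block (adjusted p = 0.0647), without L-GMP replicate B or C or GMP replicate B, C or D, and without L-GMP B and GMP D together. The adjusted p ran from 0.018 to 0.163 over the alternatives. The remaining 6 genes, Dcn, Gnas, Mest, Nnat, Sgce and Slc38a4, had no probe set past the threshold. The median difference of the list was -0.08.

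Among 47 other imprinted genes measured, with 100 probe sets, 0 probe sets rose and 14 fell, in 9 genes. This share of 14% stands beside 10.9% over all probe sets, and the list's median difference of -0.06 beside 0.00. After centring on the median 1 rose and 11 fell. Sfmbt2, a Polycomb-like gene, stood at 2.84, 3.49, 2.53 and 3.21 in L-GMP replicates A to D, against 4.90, 5.19, 4.65 and 5.0 in GMPs. The groups were separate, and it fell by 1.92 (SE 0.20, adjusted p = 0.000185) in this probe set. Its other probe set did not pass. Ppp1r9a, an actin-binding protein gene, fell by 1.33 (SE 0.15) and 2 of its 5 probe sets fell. Pon3, a lactonase gene of the paraoxonase family, fell by 1.32 (SE 0.23). Atp10a, a phospholipid-transporting ATPase gene, fell in 3 of 4 probe sets, with a largest change of -1.28 (SE 0.17). Gab1, an adaptor gene of receptor tyrosine kinases, fell in 3 of 3 probe sets, with a largest change of -1.26 (SE 0.24), and in 2 of 3 under either other scaling. Imprinting of several of these genes is known mainly from the placenta.

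Among GRB10's partners and the insulin and IGF pathway, 34 genes with 96 probe sets were measured, and 7 probe sets rose and 15 fell. The share of 22.9% stands beside the background of 10.9%, and the list's median difference of -0.04 beside 0.00. Igf2bp3, Igf1r and Nedd4 gave 6, 5 and 3 of the 22 calls. With only the brightest probe set of each gene, 5 of 34 passed (14.7%), against 12.1% of 18193 overall. The falls came from 7 genes and the rises from 2, while the other 25 genes had no probe set past the threshold. The list was drawn up with the changes of Nedd4 and Igf2bp3 already known, so it is not independent evidence of its direction. For the same reason the p-values of Nedd4 and Igf2bp3 below are no independent test, with or without L-GMP replicate B. After median centring 12 rose and 12 fell.

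Igf1r, the IGF1 receptor to which GRB10 binds, fell in all 5 of its probe sets, with changes of -2.01 to -0.83. The probe set with the largest change stood at 5.88, 4.87, 5.12 and 6.53 in L-GMP replicates A to D, against 7.68, 7.70, 7.58 and 7.47 in GMPs. Every L-GMP array was lower than every GMP array, and the change was -2.01 (SE 0.30, adjusted p = 0.00204). L-GMP replicate B was the lowest array in each of the 5 Igf1r probe sets, at 4.73 to 5.91. All 5 also fell after median centring and after quantile normalization.

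Nedd4, the ubiquitin ligase that binds GRB10 and is needed for normal IGF1 receptor levels in mice, fell in all 3 probe sets, with changes of -5.50 to -4.58. The probe set with the largest change stood at 3.90, 6.34, 3.85 and 3.65 in L-GMP replicates A to D, against 10.4, 9.84, 9.77 and 9.78 in GMPs. L-GMP replicate B was the highest L-GMP array and still below every GMP array. The change was -5.50 (SE 0.50, adjusted p = 6.70e-05), and without L-GMP replicate B it was -6.13 (adjusted p = 1.40e-08, the lowest over the alternatives, with 0.000836 the highest).

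The GRB10 relatives were dim. Grb14, a second adaptor of the same family, fell by 0.94 (SE 0.17, adjusted p = 0.00533) in 1 of 2 probe sets, which stood at 3.18, 3.49, 3.50 and 3.13 in L-GMP replicates A to D, against 3.79, 4.41, 4.47 and 4.40 in GMPs. Its other probe set had a change of 0.40 and was past the threshold as higher after median centring, so the gene's direction depends on the probe set. Grb7, named after its values were seen, had a change of -0.01 in its single probe set.

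Igf2bp3, a fetal RNA-binding protein named for its binding to Igf2 mRNA, rose in all 6 of its probe sets, by 2.71 to 3.73. The probe set with the largest change stood at 7.73, 4.55, 7.93 and 7.69 in L-GMP replicates A to D, against 3.18, 3.73, 2.97 and 3.10 in GMPs. L-GMP replicate B was far below the other L-GMP arrays and above every GMP array. The rise was 3.73 (SE 0.63, adjusted p = 0.00418), and without L-GMP replicate B it was 4.53 (adjusted p = 2.43e-07, the lowest over the alternatives, with 0.0229 the highest). The Igf2 transcript itself differed by 0.04 and 0.11 in its probe sets.

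Other changes in the pathway were smaller. Sos1, an activator of RAS, fell by 0.97 (SE 0.13, adjusted p = 0.000954) in 1 of 5 probe sets. Igfbp4, an IGF-binding protein, fell by 1.27 (SE 0.34, adjusted p = 0.0391) in the leading 1 of 3 fallen probe sets of 6. That call was lost with a trended robust prior and without L-GMP replicate D or any single GMP array (adjusted p 0.00525 to 0.0916 over the alternatives). Pik3r1, a regulatory subunit of PI3 kinase, rose by 0.35 (SE 0.10, adjusted p = 0.0469) in 1 of 4 probe sets, a call lost in 10 of 16 alternatives, among them without any single array other than L-GMP replicate B (adjusted p 0.0139 to 0.116). Without GMP replicate B, C or D the list's count of 22 was 13, 14 and 14.

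Of 14 measured factors known for setting or keeping methylation imprints, with 35 probe sets, 1 probe set rose and 6 fell. This share of 20% stands beside the background of 10.9%. Dnmt3a, Dnmt3b and Dnmt3l gave 4, 2 and 1 of the 7 calls. With only the brightest probe set of each gene, 2 of 14 passed (14.3%), against 12.1% overall. After median centring 2 probe sets rose and 4 fell. Dnmt3a, a de novo DNA methyltransferase that is often mutated in human myeloid leukaemia, fell in 4 of 5 probe sets. The one with the largest change stood at 5.10, 6.32, 5.70 and 5.24 in L-GMP replicates A to D, against 7.93, 7.61, 7.80 and 7.71 in GMPs. The groups were separate and the change was -2.17 (SE 0.23, adjusted p = 0.000216). Dnmt3b, the second de novo enzyme, fell in both probe sets, with changes of -0.72 and -0.65. Dnmt3l, their cofactor in germ cells, rose by 0.77 (SE 0.17, adjusted p = 0.0159), and that call was lost without L-GMP B and GMP D together (adjusted p = 0.0556, and 0.00504 to 0.0556 over the alternatives). The other 11 factors, among them Trim28, Ctcf, Zfp57 and Dnmt1, had no probe set past the threshold.

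**Figure D4:**
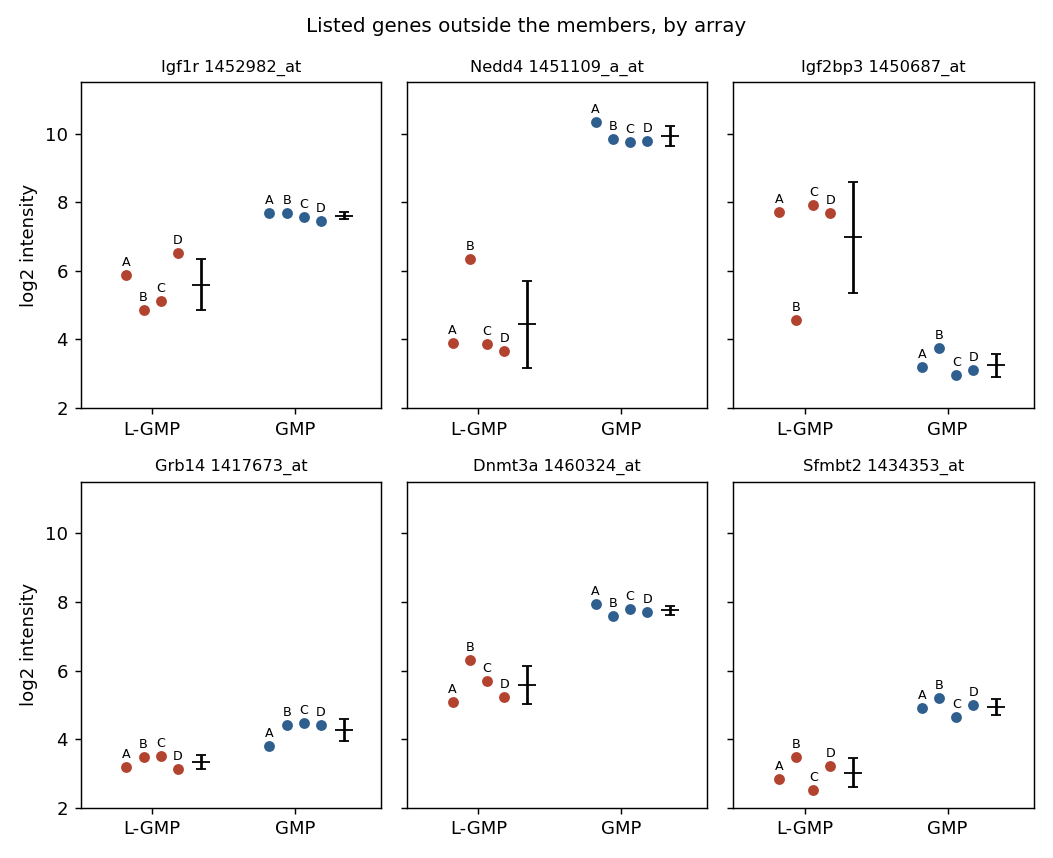
Log2 intensity on each array of the probe set with the largest change of 6 listed genes outside the members, L-GMP left and GMP right, with letters for replicates and bars for the mean ± SD of 4 arrays. L-GMP replicate B stands apart from the other L-GMP arrays in Nedd4 and Igf2bp3, and no panel has overlapping groups.

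Of 5 marker lists of other cell types, 3 had shares of 44.4%, 75% and 38.5% of their probe sets past the threshold, all of them lower in L-GMPs, where 7.03% of all probe sets fell. The GMP markers above had 46.2%, likewise all lower. Of the stem and multipotent progenitor markers, 8 of 18 probe sets fell and 0 rose, and the summed linear intensity of the 10 genes was 193 to 220 in L-GMPs and 427 to 465 in GMPs. Hlf, the brightest of them, fell by 0.75 (adjusted p = 0.042). Meis1, a gene of the leukaemia's label, is on this list, gave 3 of the 8 falls and had its largest change (-3.05). That Meis1 probe set also entered the sums, with means of 4.04 in L-GMPs and 7.09 in GMPs. The other falls were in Hlf, Mecom, Procr and Tek. Of the eosinophil, basophil and mast cell markers 9 of 12 fell and 0 rose, with sums over 9 genes of 643 to 1531 in L-GMPs and 4459 to 11008 in GMPs. Of the megakaryocyte and erythroid markers 5 of 13 fell and 0 rose, with sums over 11 genes of 291 to 398 in L-GMPs and 648 to 2324 in GMPs. Of the lymphoid markers 2 of 19 were past the threshold, a share of 10.5% against 10.9% over all probe sets. These were Nkg7, which fell by 4.91, and 1 of 3 probe sets of Dntt, whose call was lost under both other scalings. The lymphoid sums were 573 to 904 in L-GMPs and 2039 to 2421 in GMPs. Nkg7, with means of 5.85 in L-GMPs and 10.8 in GMPs, made up most of the GMP sums. The other 9 lymphoid genes had no probe set past the threshold, so the sums do not describe the list as a whole. The stromal and endothelial markers, with sums of 317 to 458 in L-GMPs and 296 to 442 in GMPs, had 0 of 24 probe sets past the threshold.

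Prg2 and Pf4, the most changed markers of their lists, varied more among the GMP arrays than Grb10. Prg2, an eosinophil granule gene, stood at 10.4, 11.8, 9.20 and 9.57 in GMP replicates A to D, and Pf4, platelet factor 4, at 10.4, 7.20, 8.76 and 9.05. The brightest Grb10 probe set ran from 8.22 to 9.02 on the same arrays. Prg2 and the Grb10 probe sets 1425458_a_at (the brightest) and 1430164_a_at were highest in GMP replicate B, where Pf4 was lowest. The Grb10 probe set 1425457_a_at was highest in GMP replicate A. Prg2, 1425458_a_at and 1425457_a_at were lowest in GMP replicate C, while 1430164_a_at was lowest in GMP replicate A. The part of these cells in the Grb10 signal was not tested. Itga2b, the brightest marker of the megakaryocyte list, fell by 1.68, and Mcpt8, a basophil protease gene, had a change of -0.46 (adjusted p = 0.262).

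The genes most like Grb10 across the 8 arrays were named by Pearson's r of their log2 values with its brightest probe set, as a description. They were Bcl11a, Gja1, Hoxa9 in its falling probe set, Plekha5 and Rab38, all with r between 0.997 and 0.999. Each was low in all L-GMPs and high in all GMPs, and the distance between the groups sets such values: 1253 probe sets had r above 0.9. No other member is among the 5.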

How the data were processed

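RNA of FACS-sorted progenitors was measured on 8 one-colour Affymetrix arrays, 4 L-GMP and 4 GMP, grouped by sample title. The authors deposited linear intensities between 3.54 and 29746.73, made with RMA per the submitters' processing notes. RMA subtracts background, brings arrays to a common scale and merges probes into probe sets. No version of it is stated in the labels. Per the labels' protocols, RNA came from Trizol extraction and was labelled as sense-strand target, which is not the usual target of this array type, and this was not settled. The number of arrays limits precision.

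The deposited intensities were turned into log2, without 64 control probe sets. Of the other 45037, 34945 had 1 gene symbol, 932 several and 9160 none. Entrez identifiers matched 34741 to RefSeq genes, with 0 symbols changed. All 45037 were fitted with limma (version 3.58.1, R 4.3.3; lmFit and eBayes on group, 2-sided, Benjamini-Hochberg adjustment over all probe sets at 0.05). A run on simulated data, with independent noise for each value and no shared array effects, checked the code only. Differences are L-GMP minus GMP. P-values measure the spread between these arrays, which may be technical.

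Members and lists were chosen with earlier results of these data known. The naming rule took all members, up to 5 rises and 5 falls per list by largest change, the gene with the largest change in a list without any, the GMP markers, the brightest and most changed gene of each other marker list, and the 5 genes most like Grb10. Listed genes without a single-symbol probe set were not analysed here. Alternatives were median centring and quantile normalization, leaving out the dimmest 25% or 50%, a trended prior, weights per array, a block on the replicate letter, 1 probe set per gene, and fits without each array. Dropping L-GMP B together with GMP D was added after seeing the data. Same-letter arrays of the groups had correlations of deviations from the group means of -0.07 to 0.10, so the letters were not taken as pairs. Promoter windows are those of RefSeq (GRCm38.p6).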

Additional observations from a re-analysis of the deposited data

Results flagged for a closer look

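Single arrays far from the other 3 of their group were found in 4 of 74 groups of 4 member values, where chance gives about 1 in 20, or 3.7. An Ndn probe set (1438978_x_at) stood at 3.18 in GMP replicate B, with the other GMP arrays at 2.41 or lower. Another Ndn probe set (1437853_x_at) stood at 4.65 in L-GMP replicate D, with the other L-GMP arrays at 4.26 or lower. A Meg3 probe set (1426758_s_at) stood at 5.06 in GMP replicate B, with the other GMP arrays at 5.30 or higher. A Peg3 probe set (1447732_x_at) stood at 2.33 in GMP replicate B, with the other GMP arrays at 2.28. None of the 4 was past the threshold.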

How the results depend on the processing

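The difference of each Grb10 probe set kept its direction in every alternative that kept the probe set, between -5.34 and -5.06, between -2.22 and -1.91, and between -1.03 and -0.72. Of 551 recomputed member differences, 12 moved by a replicate SD or more, 11 of them under median centring and 1 under quantile normalization, and no called one changed sign. The 4 member probe sets past the threshold became 6 of 37 (16.2%) after either other scaling (3 higher and 3 lower). Over all probe sets, 14.5% passed after median centring and 11.7% after quantile normalization. With array weights 6 members passed as well (2 higher and 4 lower), 16.2% against 15% of all. Without the dimmest 50% the members had 2 of 4, where 17.6% of all probe sets passed. With 1 probe set per gene they had 2 of 9, against 12.1% of all. The replicate block gave 3 (8.11% against 9.05%), and fits with an array left out gave 3 to 4. These were not always the same probe sets: the Peg3 call stayed only without GMP replicate C among the fits that left out 1 array. Over all probe sets 4921 were called, 35.6% of them rises. Median centring gave 6523 calls with 65.9% rises, and quantile normalization 5263 with 46.8%. With 1 probe set per gene 2193 passed, and 2972 to 5334 with an array left out (2972 without GMP replicate B, 3244 without GMP replicate D). The block gave 4077. The rest of the network had 2 calls of 14 after median centring (14.3%, against 14.5% of all). It had 0 in the block, 0 without L-GMP B and GMP D together and 0 to 1 with an array left out. The other imprinted genes had 8 of 45 without the dimmest 50% (17.8%, against 17.6% of all). With 1 probe set per gene they had 8 of 47 (17%), where 12.1% of all passed. In the same setting GRB10's partners had 5 of 34 (14.7%) and the imprint factors 2 of 14 (14.3%). With an array left out GRB10's partners had 13 to 23. The letters A to D are a hint at most: in the block no further count moved by over 1.5 times, and 1 of 4 L-GMP arrays correlated best with its own letter. The cause of these changes was not tested. Without detection calls, signals near the floor limit what can be said of dim members.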
